A study of Mus musculus with 20 samples.

Results

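The milk protein genes of the mouse were read in RNA from sorted skin cells: the 5 caseins Csn1s1, Csn1s2a, Csn1s2b, Csn2 and Csn3, the whey proteins Wap and Lalba, and the milk mucin Glycam1. They are 8 of the 51123 gene identifiers in the deposited count table, and they were picked by name and because their counts spread strongly between libraries of the same table. Their levels over the libraries are therefore a description, and no test of that spread is read as a finding. Cells carrying the red tdTomato reporter had been sorted from epidermis or from spontaneous squamous carcinomas of the skin (cSCC), and their total RNA was sequenced in 20 libraries of 7 groups. Young epidermis came from mice of 100 to 120 days that were wild type (WT), K14cre;Wwox fl/fl (WKO), K14cre;p53 fl/fl (PKO) or K14cre;Wwox fl/fl;p53 fl/fl (DKO), with 3 libraries in each group. Old WT epidermis (2 libraries) came from mice of 400 days or more, and carcinomas came from PKO and DKO mice (3 libraries each) whose ages the labels do not give. In K14cre mice the keratin 14 promoter drives Cre recombinase in basal keratinocytes, and the same promoter is active in other ectodermal epithelia, the mammary gland among them. The control titles read only wild type, the labels give neither the sex of the mice nor the body site of the skin, and the samples of a group are called biological replicates.

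Caseins are the bulk proteins of milk. The alpha and beta caseins (Csn1s1, Csn1s2a, Csn1s2b, Csn2) bind calcium phosphate, and kappa casein (Csn3) coats and stabilises the micelles that they form. Wap is a whey protein of the protease inhibitor type, Lalba is the subunit that turns the galactosyltransferase B4galt1 into lactose synthase, and Glycam1 is a mucin-like glycoprotein of milk that is also made by high endothelial venules of lymph nodes. In the mammary gland these genes are switched on in luminal secretory cells during pregnancy and lactation, when prolactin acts through its receptor Prlr, the kinase Jak2 and the transcription factors Stat5a and Stat5b, together with glucocorticoid receptor and the luminal factor Elf5.

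The DNA letters that STAT5 is known to bind are shown for the members that carry them, and their part in the levels was not tested. RefSeq promoters of build GRCm38.p6 were given for 6 of the 8 members, and Csn1s2b and Csn3 were not among them. The motif TTCNNNGAA, which reads the same on both strands, was searched in the 250 bases before each start. It was found in 3 of the 6 members with a promoter and in 7.02% of all 32851 promoters, which belong to 27025 genes. Each window below is 61 bases, upstream of the transcript and outside exons, printed 5′ to 3′ on the gene's strand, with the motif in capitals.
Csn1s1: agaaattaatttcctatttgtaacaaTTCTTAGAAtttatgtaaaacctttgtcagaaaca
Csn2: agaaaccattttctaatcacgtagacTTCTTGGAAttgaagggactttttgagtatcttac
Glycam1: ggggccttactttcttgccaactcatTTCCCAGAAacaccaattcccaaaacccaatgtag
The Csn1s1 window lies at chr5:87666082-87666142 on the plus strand, with the motif 100 to 92 bases before the start. The Csn2 window lies at chr5:87699484-87699544 on the minus strand, with the motif 93 to 85 bases before the start. The Glycam1 window lies at chr15:103565192-103565252 on the minus strand, with the motif 145 to 137 bases before the start. The promoters of Csn1s2a on chromosome 5, Wap on chromosome 11 and Lalba on chromosome 15 held no such letters in this window. A match is a description of the sequence, and binding was not measured here.

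The libraries held 11930153 to 17199262 counts, of which 15.0% to 40.9% were mitochondrial ribosomal RNA. Levels are given as CPM, counts scaled to library size by the trimmed mean of M-values over all 20 libraries, on which 1 count is worth 0.0507 to 0.0961 CPM, depending on the library. Wwox, the WW domain-containing oxidoreductase gene, was counted at 7.999 to 16.9 CPM in WT and PKO epidermis and 0.139 to 1.284 CPM in WKO young, but at 7.11 CPM in the library labelled DKO young 3. Trp53, the gene of p53, reached 45.9 CPM in the library labelled DKO cSCC 3, while the other 5 carcinomas had 0.872 to 4.31 CPM. Both libraries go against their labels at these genes and are named so below. Group means, ranges and tests of DKO young and DKO cSCC below include them. In young epidermis Trp53 was 21.4 and 20.4 CPM in PKO young 2 and 3 and 20.5 CPM in the library labelled DKO young 3. These 3 lay below the WT libraries (25.3 to 40.1 CPM) and above PKO young 1 (6.03 CPM) and DKO young 1 and 2 (3.28 and 3.21 CPM). Loss of p53 was thus less clear in PKO young 2 and 3, and the names of PKO young libraries below are those of the labels. Fibroblast markers summed to 2308 and 1890 CPM in PKO young 2 and 3 and to 68.6 CPM in PKO young 1, and their part in these Trp53 levels was not tested. Basal keratinocyte markers (7 genes, Krt5 and Krt14 among them) were present in every library, with a summed level of 1584 to 29407 CPM. They were lowest in WT young, at 1584 to 2777 CPM. In WKO young they were 11587 to 19714 CPM and in DKO young 10663 to 12231 CPM. In PKO young they were 2944 to 14838 CPM, and in old WT at least 3060 CPM. In bulk RNA of this kind, fewer cells of a type and less RNA per cell cannot be told apart.

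Milk protein RNA was concentrated in a single library. In WT old 2 the 8 genes took 341452 of 12600587 counts, or 2.71% of the library (95% Wilson interval 2.70% to 2.72%), a summed level of 25550 CPM. WKO young 2 came next with 22055 counts, or 0.170% of the library (0.167% to 0.172%) and 1537 CPM. The other old WT library, WT old 1, held 2277 counts and 189 CPM. These intervals cover counting error only, and reads without molecular identifiers are not independent molecules. Of each member's counts over the 20 libraries, WT old 2 held between 81.5% (Glycam1) and 99.7% (Csn1s2b).

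Below those libraries the summed level still spread widely within groups. It was 0.551, 1.56 and 23.6 CPM in WT young 1, 2 and 3. In WKO young 1 and 3 it was 33.9 and 45.7 CPM. In PKO young 1, 2 and 3 it was 94.7, 1.65 and 43.0 CPM. In DKO young 1 and 2 it was 18.2 and 3.57 CPM, and in the library labelled DKO young 3 it was 68.8 CPM. Within each of the 4 young groups the highest library thus lay more than 10-fold above the lowest. In PKO cSCC 1, 2 and 3 it was 0.283, 13.8 and 0.233 CPM. In DKO cSCC 1 and 2 it was 0.0725 and 0.150 CPM, and in the library labelled DKO cSCC 3 it was 0.450 CPM. Of the 6 carcinomas, 5 lay below every epidermis library, and PKO cSCC 2 lay within the range of young epidermis. PKO cSCC 2 was the only carcinoma library with more than 5 counts over the 8 genes.

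**Figure D1:**
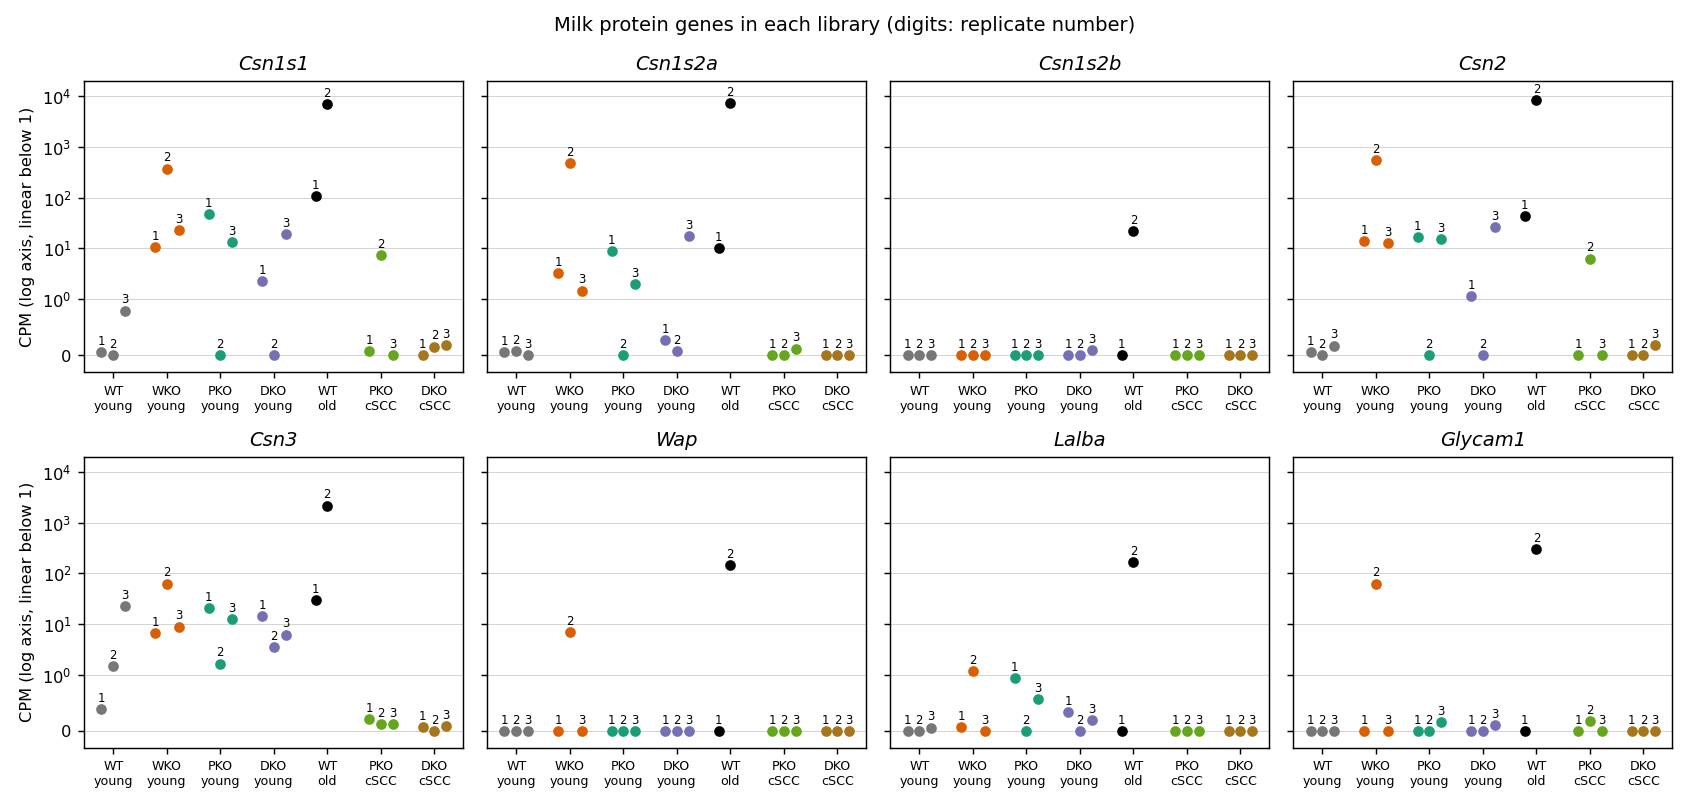
Level of each milk protein gene (CPM, log axis that is linear below 1) in each of the 20 libraries, by group, with the replicate number above each point. WT old 2 is the highest point in all 8 panels, WKO young 2 is second for every gene except Csn1s2b, and the carcinomas sit at or near 0 apart from PKO cSCC 2 for Csn1s1 and Csn2.

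Csn2, which encodes beta casein, reached the highest level of any member, 8373 CPM (111902 counts) in WT old 2. WT old 1 stood at 43.7 CPM, so the pair of old libraries differed 191-fold and gave 4209 ± 5890 CPM (SD, n = 2). In WKO young 1, 2 and 3 Csn2 was 13.7, 558 and 12.5 CPM (195 ± 314, SD, n = 3). In PKO young it was 16.5, 0 and 15.0 CPM, and in DKO young 1.11 and 0 CPM in libraries 1 and 2 and 25.9 CPM in the library labelled DKO young 3. WT young libraries had 0.0551, 0 and 0.169 CPM, below all 3 WKO libraries. Among carcinomas only PKO cSCC 2, at 6.26 CPM (106 counts), and the library labelled DKO cSCC 3, at 0.180 CPM, had any count.

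Csn1s1, which encodes alpha-S1 casein, was likewise highest in WT old 2, followed by WKO young 2 and WT old 1. It was 7114 CPM in WT old 2 and 106 CPM in WT old 1, a 67.3-fold difference. WKO young 1, 2 and 3 had 10.3, 373 and 23.0 CPM. PKO young had 47.6, 0 and 12.98 CPM, and PKO young 1 lay above WKO young 1 and 3, as it did for Csn2. DKO young 1 and 2 had 2.23 and 0 CPM and the library labelled DKO young 3 had 18.9 CPM. WT young libraries had 0.0551, 0 and 0.790 CPM. PKO cSCC 2 had 7.20 CPM (122 counts), and the other 5 carcinomas had 0 to 0.180 CPM.

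Csn1s2a, an alpha-S2-like casein, had the largest ratio between the old WT libraries among the members counted in both. It was 7270 CPM in WT old 2 against 9.90 CPM in WT old 1, a 735-fold difference. In WKO young 2 it was 474 CPM, against 3.24 CPM in WKO young 1 (146-fold) and 1.45 CPM in WKO young 3 (327-fold). PKO young libraries had 8.86, 0 and 1.93 CPM. The library labelled DKO young 3 had 17.4 CPM, while DKO young 1 and 2 had 0.262 and 0.0714 CPM. WT young and all carcinomas had at most 0.116 CPM. Csn1s2b, the other alpha-S2-like casein, was counted in WT old 2 (296 counts, 22.1 CPM) and once in the library labelled DKO young 3. It had 0 counts in the other 18 libraries, where the limit that a count of 0 allows (3 counts) lies between 0.152 and 0.270 CPM.

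Csn3, which encodes kappa casein, was the most widely detected member, with a count in 19 of 20 libraries. It was 2163 CPM in WT old 2 and 30.02 CPM in WT old 1, a 72.1-fold difference. WT young 1, 2 and 3 had 0.386, 1.49 and 22.6 CPM, so WT young 3 lay above WKO young 1 (6.56 CPM) and WKO young 3 (8.84 CPM) and below WKO young 2 (62.6 CPM). PKO young had 20.8, 1.65 and 12.4 CPM. DKO young 1 and 2 had 14.3 and 3.50 CPM, and the library labelled DKO young 3 had 6.15 CPM. The 4 young groups overlapped for this gene. All 6 carcinomas lay below every epidermis library, at 0 to 0.212 CPM. PKO cSCC 2 had 2 counts of Csn3 (0.118 CPM) beside its 122 of Csn1s1.

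The whey genes and Glycam1 were counted almost wholly in the libraries with the most casein. Wap had 1955 counts (146 CPM) in WT old 2, 98 counts (6.83 CPM) in WKO young 2 and 0 in the other 18 libraries. WT old 2 was thus at least 586-fold higher in Wap than WT old 1, taking 3 counts per library as the floor. Lalba had 2204 counts (165 CPM) in WT old 2 and 17 counts (1.18 CPM) in WKO young 2. PKO young 1 and 3 had 0.943 and 0.558 CPM of Lalba, 4 other young libraries had 0.0565 to 0.328 CPM, and WT old 1 and all carcinomas had 0. Glycam1 had 3966 counts (297 CPM) in WT old 2 and 893 counts (62.2 CPM) in WKO young 2, a 4.77-fold difference. That step was smaller than for the caseins counted in both libraries, which were 15.0-fold (Csn2) to 34.6-fold (Csn3) higher in WT old 2. For Lalba the same step was 139-fold, and for Wap 21.4-fold. Glycam1 had 1 to 3 counts in PKO young 3, PKO cSCC 2 and the library labelled DKO young 3.

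The make-up of the casein counts differed between libraries. Shares below are of the counts of the 5 caseins in a library, with exact 95% binomial intervals, in the 14 libraries with at least 20 such counts. They compare the same gene between libraries, since counts are not scaled by length. In WT old 2, WKO young 2 and the library labelled DKO young 3, Csn1s2a made up 29.1%, 32.3% and 25.4% (22.2% to 28.7% in the last). In WT old 1 its share was 5.23% (4.35% to 6.22%), in PKO young 1 9.45% (8.01% to 11.05%), in PKO young 3 4.55% and in WKO young 3 3.17%. The intervals of these 4 libraries lay below those of the first 3. Csn1s1 took the larger part in 3 of them, with 55.8% in WT old 1, 50.7% in PKO young 1 and 50.2% in WKO young 3 against 28.5% in WT old 2.

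The share of kappa casein (Csn3) among the casein counts ran from 0.870% to 100% over the libraries with at least 20 such counts. Csn3 was 8.67% of the casein counts in WT old 2, 4.27% in WKO young 2 and 8.98% in the library labelled DKO young 3. It was 15.9% to 29.3% in WT old 1, PKO young 1 and 3 and WKO young 1 and 3. In WT young 3 it was 95.9% (400 of 417 counts, 93.6% to 97.6%), and in DKO young 1 79.9% (74.6% to 84.4%). The libraries with the fewest casein counts, DKO young 2, WT young 2 and PKO young 2, had 49 of 50, 22 of 23 and 20 of 20 counts in Csn3. WT young 3 had 417 casein counts and WKO young 1 had 500, with Csn3 at 19.4% (16.02% to 23.1%) in the latter, so libraries of like casein count differed in this share. In PKO cSCC 2, Csn1s1 was 53.04% and Csn2 46.1% of 230 counts. Csn1s2a was 0 of 230 there (exact interval 0% to 1.59%), and Csn3 was 0.870% (0.105% to 3.11%), below all other libraries.

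**Figure D2:**
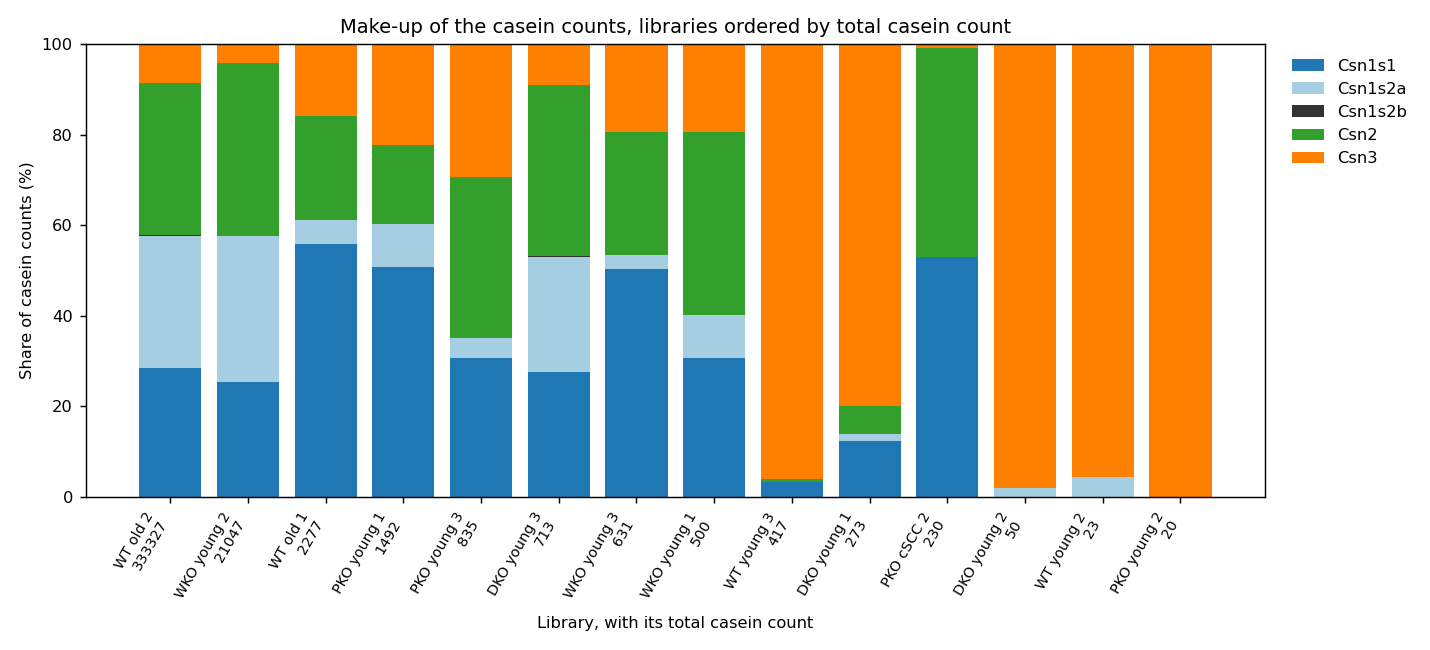
Share of each casein (%, stacked bars) in the casein counts of the 14 libraries with 20 or more, ordered by that total, which is printed under each name. Csn1s2a is 25.4% to 32.3% in WT old 2, WKO young 2 and the library labelled DKO young 3, Csn3 is 79.9% or more in the 5 libraries WT young 2 and 3, PKO young 2 and DKO young 1 and 2, and PKO cSCC 2 holds Csn1s1 and Csn2 almost alone.

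Levels of different members can be set side by side only per length, here CPM per kilobase of the longest protein-coding transcript of the gene in GENCODE M21. On that scale WT old 2 ran from Csn1s2a (7902) through Csn2 (6301), Csn1s1 (5042) and Csn3 (1356) to Glycam1 (463), Wap (265), Lalba (214) and Csn1s2b (13.3). WKO young 2 kept Csn1s2a first at 515 and Csn2 second at 420 CPM per kilobase. In WT old 1 the order began with Csn1s1 (74.9), Csn2 (32.9) and Csn3 (18.8), with Csn1s2a next at 10.8 CPM per kilobase.

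By group median, old WT epidermis was highest for each of the 8 genes, and the 2 libraries behind that median were far apart. For Csn2 and Csn3 the lower old library still lay above all PKO young libraries, the group next in order. For the other 6 members the old WT group overlapped the group below it. For Csn1s2a, WT young (at most 0.0679 CPM) did not overlap DKO young (at least 0.0714 CPM), by a margin of less than 1 count. Neighbouring groups overlapped in all other steps among the young groups, so that their order was within the spread between libraries.

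In edgeR's quasi-likelihood fit, 5 of the 8 members (Csn1s1, Csn1s2a, Csn2, Csn3, Lalba) passed the filter on low counts in young epidermis, mostly through the libraries where they were high. With Benjamini-Hochberg adjustment over 16627 genes, 3 of those 5 passed a threshold of 0.05 in WKO against WT young, all higher in WKO, where 21.4% of all genes were called (13.1% higher). The fitted log2 fold change was 11.10 for Csn2 (SE 3.02, edgeR adjusted p = 0.0297), for Csn1s2a 11.67 (SE 3.47, adjusted p = 0.0391) and for Csn1s1 8.79 (SE 2.62, adjusted p = 0.0391). In the WT young libraries Csn1s2a had at most 1 count, Csn2 at most 3 and Csn1s1 at most 14, so that these fitted changes are no measure of a fold. The 3 calls were 0 without WKO young 2, and also 0 without WKO young 3 or without any 1 of the 3 WT young libraries. For Csn3 the change was 1.65 (SE 1.36, adjusted p = 0.399) on the log2 scale.

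No member was called in the other young comparisons. For PKO against WT young, 2 members had an unadjusted p under 0.05 in edgeR (25.1% of all genes had), and 0.00601% of all genes were called. DESeq2 called 2327 genes there, so that low share is of edgeR's fit. For DKO against WT young 1 member (Csn2, log2 fold change 6.70, SE 2.86, adjusted p = 0.104) had an unadjusted p under 0.05 (41.2% of all genes had), and 27.8% of all genes were called. These comparisons share the WT young libraries. T and natural killer cell markers (15 genes) summed to 1944 to 2509 CPM in WT young, 57.6 to 1094 CPM in WKO, 308 to 4436 CPM in PKO and 107 to 354 CPM in DKO libraries. By edgeR 3 of 15 were lower in WKO and 8 of 15 were lower in DKO. Over all 16627 genes, 1386 were lower in WKO and 2006 in DKO. Trac, the constant part of the T cell receptor alpha chain, was 24.7 ± 1.6 CPM in WT young, 0.935 ± 0.911 CPM in WKO (edgeR adjusted p = 0.0328) and 0.598 ± 0.350 CPM in DKO (edgeR adjusted p = 0.0196). The part of those cells in the difference of the milk genes was not tested.

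Old against young WT epidermis gave log2 fold changes of 7.10 (Csn3) to 16.24 (Csn1s2a) for the 7 members tested, and edgeR called none of them, where 1.99% of 17622 genes were called. All 7 had an unadjusted p under 0.05 (22.9% of all genes had), and Lalba lay nearest to the threshold (edgeR adjusted p = 0.05003). DESeq2 called 1 member, and 2145 of the 17622 genes. Without WT old 1, edgeR called 4, but the old group is then WT old 2 alone, which is assumed to vary like the other groups, so that this count adds no support. Against old WT, 4 members could be tested in the carcinomas, and edgeR called 0 of 4 in PKO cSCC (0.0121% of genes called) and 0 of 4 in DKO cSCC (0% called). All 4 had an unadjusted p under 0.05 in each of those comparisons, as had 27.7% and 14.5% of all genes. DESeq2 called 2 members in each, and 3009 and 816 of 16526 genes in all. The fitted log2 change of Csn3 was -12.70 (SE 1.81, adjusted p = 0.05004) in PKO cSCC and -14.07 (SE 1.96, adjusted p = 0.163) in DKO cSCC. Between DKO and PKO cSCC none of the 4 had an unadjusted p under 0.05 (8.1% of all genes had), edgeR and DESeq2 called 0 members, and 0.00605% of all genes were called.

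Other genes of milk secretion followed the caseins into WT old 2. Of a list of 33 milk and mammary secretory genes outside the 8, 24 had their highest level of all 20 libraries in WT old 2, where 7.83% of all genes of at least 1 CPM did. Of the 33, 12 were more than 5-fold above every other library, against 133 of 18245 genes in all. Their summed level was 17559 CPM in WT old 2 and 691 to 2040 CPM in the other 19 libraries. Genes named next were chosen after their values were seen. Btn1a1, the butyrophilin of the milk fat globule, was 956 CPM in WT old 2 and at most 24.8 CPM elsewhere. Xdh, which is needed for fat globule release, was 745 CPM against at most 210 CPM. Trf, transferrin, was 5896 CPM against at most 540 CPM, and Cel, a milk lipase, was 107 CPM against at most 7.90 CPM. Lao1, an amino acid oxidase of mouse milk, was 148 CPM in WT old 2 and 14.6 CPM in WKO young 2, with at most 0.541 CPM elsewhere. Fatty acid synthase Fasn, which skin also makes, was 200 CPM in WT old 2 and 140 to 405 CPM in the other libraries.

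**Figure D3:**
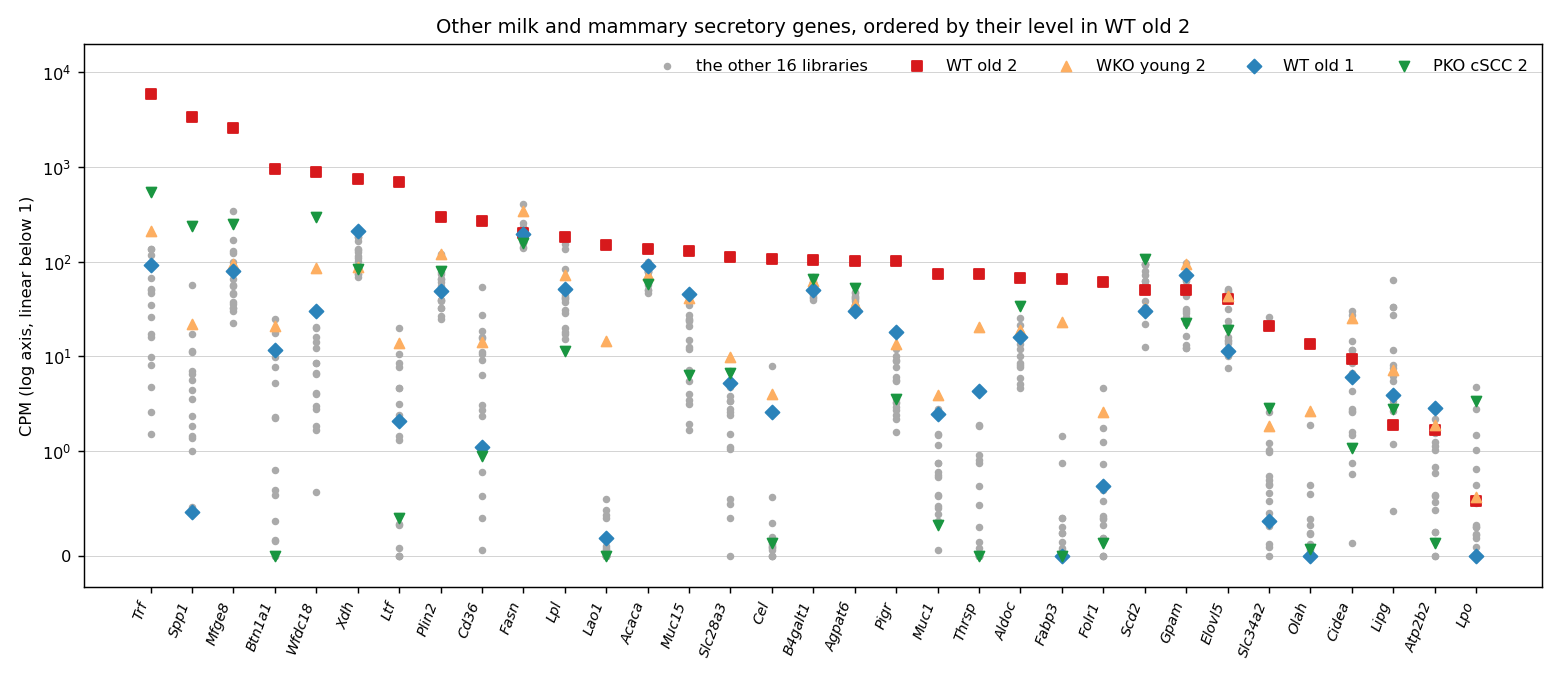
Level (CPM, log axis that is linear below 1) of 33 other milk and mammary secretory genes, ordered by their level in WT old 2 (red squares), with WKO young 2, WT old 1 and PKO cSCC 2 marked and the other 16 libraries in grey. The red squares lie highest for 24 of the 33 genes, and PKO cSCC 2 is the highest of the other libraries for Trf, Spp1 and Wfdc18.

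By the test across all genes, 7 of the 33 secretory genes rose in old against young WT and none fell (1.99% of all genes were called), with a median log2 fold change of 3.61 over the list and 0.01 over all genes tested. Muc15, a membrane mucin of the fat globule, rose from 5.21 ± 2.02 (SD, n = 3) to 87.5 ± 59.98 CPM (n = 2), a log2 fold change of 4.10 (SE 0.52, edgeR adjusted p = 0.0181). Aldoc, a glycolytic aldolase, rose from 6.88 ± 1.61 to 41.7 ± 36.5 CPM (edgeR adjusted p = 0.0331). The 7 calls were 17 without WT old 1 (with WT old 2 then alone in its group), 1 without WT old 2, and 0 without any 1 of the WT young libraries. In WKO against WT young 8 of the 30 that could be tested rose and 1 fell (median 0.81, all genes -0.03), where 21.4% of all genes were called. In DKO against WT young 5 rose and 3 fell (median 0.41, all genes -0.04), a share near the 27.8% of all genes called. Gpam, a glycerol acyltransferase, was 84.2 ± 19.1 CPM in WKO and 21.4 ± 9.0 CPM in WT young (n = 3 each, edgeR adjusted p = 0.0128). Cidea, a lipid droplet protein, was 21.3 ± 8.6 against 1.68 ± 0.85 CPM (edgeR adjusted p = 0.0139). In WKO the count of 9 was 3 without WKO young 2 and 4 without WKO young 3, WT young 1 or WT young 2. In DKO the count of 8 was 2, 4, 5 and 3 without DKO young 1, DKO young 2, WT young 1 and WT young 2. It was 6 without the library labelled DKO young 3. None of these genes was called by edgeR in PKO against WT young or in the 3 carcinoma comparisons, where 7 of 30 (PKO young) and 5, 19 and 15 of 31 (DKO against PKO cSCC, then PKO and DKO cSCC against old WT) had an unadjusted p under 0.05. Over all genes that share was 25.1%, 8.1%, 27.7% and 14.5% in the same order, so that the PKO young count was near the background. DESeq2 called 4, 1, 17 and 8 of them in those 4 comparisons. Over all genes it called 2327 of 16627 in the first, then 196, 3009 and 816 of 16526.

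The receptors and transducers of the prolactin signal were present in all libraries. Prl itself had 0 counts in each of the 20. Prlr was 84.7 CPM in WT old 2, 48.8 CPM in WT old 1, 15.7 to 116 CPM in young epidermis and 1.63 to 25.6 CPM in carcinomas. Stat5a was 60.8 CPM and Stat5b 60.3 CPM in WT old 2, against 7.97 to 53.8 CPM and 18.1 to 83.9 CPM in the other libraries. Elf5 stood out: it was 148 CPM in WT old 2, 16.8 CPM in WKO young 2, 15.0 CPM in WT old 1 and 0 to 10.1 CPM elsewhere. Of the 27 detected genes of this list of regulators, 5 were highest in WT old 2, where 7.83% of all genes of at least 1 CPM were.

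In the test, 8 of the 27 regulators rose and 2 fell in WKO against WT young, 9 rose and 2 fell in DKO, and 3 rose in old WT. Over all genes 21.4%, 27.8% and 1.99% were called in these comparisons. The median log2 fold change of the list was 0.56, 0.11 and 0.74, against -0.03, -0.04 and 0.01 over all genes tested. Tfap2c, an AP-2 transcription factor of skin and mammary epithelium, was 22.8 ± 4.2 CPM in WT young, 72.1 ± 12.5 CPM in WKO, 86.03 ± 10.03 CPM in DKO (n = 3 each) and 64.1 ± 13.03 CPM in old WT (n = 2). It was called in all 3 comparisons (edgeR adjusted p = 0.0128, 0.00619 and 0.0453). The STAT5 target and feedback gene Cish rose in DKO from 43.8 ± 7.7 to 164 ± 51 CPM (edgeR adjusted p = 0.00614). Socs3, another feedback inhibitor of cytokine signals, was 75.6 ± 58.2 CPM in WT young, 279 ± 33 CPM in WKO (edgeR adjusted p = 0.0255) and 577 ± 186 CPM in DKO (edgeR adjusted p = 0.00634). Areg, an EGF receptor ligand, was 2.81 ± 2.12, 19.8 ± 7.8 and 65.0 ± 24.6 CPM in the same groups (edgeR adjusted p = 0.0285 and 0.00655). The WKO count of 10 was 4 to 6 without WKO young 2, WKO young 3 or any 1 WT young library. The DKO count of 11 was 6 without DKO young 1 and 9 without the library labelled DKO young 3. The old WT count was 0 without any 1 WT young library or WT old 2. Basal keratinocyte markers were lowest in WT young, and their part in the changes of these regulators was not tested.

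Markers of luminal mammary epithelium moved with the milk genes in WT old 2. Their summed level (22 genes) was 6518 CPM there and 343 to 1327 CPM in the other libraries, and 15 of 22 were highest in WT old 2 (7.83% of all genes were). Only 3 of the 22 were at least 5-fold above every other library, against 133 of 18245 genes in all. Of the 22, Ltf, Wfdc18 and Mfge8 are also in the secretory list above and Elf5 is in the list of regulators. The lists are thus not independent. Krt18 and Krt8, the simple epithelial keratins, were 353 and 255 CPM in WT old 2, 49.9 and 52.0 CPM in WT old 1 and at most 103 and 119 CPM in any other library. Basal keratinocyte markers were lower in WT old 2 (3060 CPM) than in WT old 1 (10177 CPM). The sum of sebaceous markers (5 genes) was also highest in WT old 2, at 1944 CPM against 112 to 1456 CPM elsewhere, although 1 of the 5 had 0 counts there. Adipocyte markers (7 genes) were highest there too, at 94.4 CPM against 0.233 to 68.1 CPM. Macrophage and neutrophil markers (6 genes) were 644 CPM in WT old 2 and 6.65 CPM in WT old 1, with up to 1022 CPM in other libraries. Fibroblast markers (6 genes) were 484 and 31.3 CPM in the same pair, with up to 2586 CPM in other libraries. T cell markers were 343 CPM in WT old 2 and 158 CPM in WT old 1. The part of these cells in the milk gene levels was not tested. None of the 22 luminal markers was called by edgeR in old against young WT, although 16 had an unadjusted p under 0.05 (22.9% of all genes had). DESeq2 called 14 of them, and 2145 of 17622 genes in all. Without WT old 1 edgeR called 7, again with WT old 2 as the lone old library and the spread taken from other groups.

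WKO young 2, the library second in milk RNA, did not share the luminal level of WT old 2. The summed luminal markers were 555 to 744 CPM over the 3 WKO young libraries and 600 to 1327 CPM over PKO and DKO young. In the fit, 1 of 21 luminal markers rose and 2 fell in WKO (21.4% of all genes were called), and 3 rose and 3 fell in DKO, near the 27.8% of all genes called. The fitted change was above 0 for 15 of the 21 in WKO (median 2.07, all genes -0.03) and for 14 in DKO (median 1.25, all genes -0.04). Epcam, a simple epithelial adhesion protein, was 48.0 ± 23.3 CPM in WT young, 166 ± 17 CPM in WKO and 290 ± 89 CPM in DKO (edgeR adjusted p = 0.0217 and 0.00637). Cldn4, a tight junction protein, was 4.56 ± 2.75 CPM in WT young and 360 ± 77 CPM in DKO (edgeR adjusted p = 0.00645), and Ehf, an epithelial ETS factor, was 7.94 ± 7.54 and 95.3 ± 45.0 CPM (edgeR adjusted p = 0.0102). Kit, a receptor of luminal progenitors and of melanocytes, fell from 82.96 ± 14.4 to 20.7 ± 4.2 CPM in WKO (edgeR adjusted p = 0.0138) and to 10.8 ± 3.9 CPM in DKO (edgeR adjusted p = 0.00614). The WKO count of 3 was 0 without WKO young 2, 1 without WKO young 3 or WT young 2, 5 without WKO young 1 or WT young 3, and 15 with DESeq2. Over all 16627 genes DESeq2 called 5219 there. The part of the low keratinocyte markers of WT young in the changes of Epcam, Cldn4 and Ehf was not tested.

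PKO cSCC 2, the carcinoma with Csn1s1 and Csn2, was also set apart from the other 5 carcinomas in genes of simple and glandular epithelium, which were chosen after their values were seen. Krt8 was 90.2 CPM there and at most 2.32 CPM in the other carcinomas. Wfdc18, a whey acidic protein relative made in the mammary gland, was 296 CPM against at most 19.7 CPM. Trf was 540 CPM against at most 16.005 CPM, Spp1 (osteopontin) 240 CPM against at most 16.99 CPM, and Wfdc2, another relative of Wap, 20.7 CPM against at most 0.290 CPM. Its summed luminal markers were 1288 CPM and the highest of the carcinomas. The fat globule gene Btn1a1 had 0 counts in this library. Elf5 was 3.30 CPM there, against at most 3.06 CPM in the other carcinomas. Whether cells of another origin took part was not tested.

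Sex-linked genes split WT young and DKO cSCC, while each of the other 5 groups lay wholly on one side. Eif2s3y, a gene of the Y chromosome, was 20.2 to 26.1 CPM in 6 libraries (WT young 1, all PKO cSCC, DKO cSCC 2 and the library labelled DKO cSCC 3), where Xist was 0 to 13.5 CPM. The other 14 libraries had at most 1.83 CPM of Eif2s3y and 342 to 1529 CPM of Xist, and all the libraries with over 15 CPM of milk protein RNA were among them. The summed milk level was 0.150 to 13.8 CPM (median 0.366) in the 6 and 0.0725 to 25550 CPM (median 38.4) in the 14. Of the 6, 5 were carcinomas, so that tissue and sex-linked expression cannot be told apart over most of this split. PKO cSCC 2, with 20.8 CPM of Eif2s3y and 0 of Xist, was the library of the 6 with the most milk RNA.

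Few genes listed as neighbours of the caseins were highest where the caseins were. The distance of each from the caseins was not measured. Of the 17 neighbours found, 8 reached 1 CPM in any library, and 1 of the 8 was highest in WT old 2 (7.83% of all genes were). Odam, an ameloblast-associated gene of the cluster, was 0.150 CPM in WT old 2 and at most 0.214 CPM elsewhere, and Sult1d1 was 0.0748 and at most 0.236 CPM. Mob1b rose in DKO against WT young (39.5 ± 7.5 against 24.5 ± 0.6 CPM, n = 3 each, edgeR adjusted p = 0.0151). It was 1 of 6 neighbours tested there, where 27.8% of all genes were called. Dck fell in WKO against WT young (6.11 ± 0.77 against 15.9 ± 9.4 CPM, edgeR adjusted p = 0.0471), the only call of 6 tested, where 21.4% of all genes were called.

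Relatives of the whey genes and cells that share Glycam1 were read as well. Of 8 detected genes of the whey acidic protein family 3 were highest in WT old 2 (7.83% of all genes were). Wfdc18 of this family is also in the secretory and luminal lists. In edgeR's fit 1 of 6 family genes tested was called in WKO and 1 of 6 in DKO, where 21.4% and 27.8% of all genes were. Wfdc3 rose in WKO (1.39 ± 0.70 against 0.133 ± 0.123 CPM, edgeR adjusted p = 0.0336) and Wfdc5 in DKO (3.16 ± 2.18 against 0.285 ± 0.106 CPM, edgeR adjusted p = 0.0342). In old WT Wfdc3 was 25.6 ± 36.1 CPM (n = 2) and was not called (edgeR adjusted p = 0.0559). Among lysozyme relatives of Lalba, Lyz2, a myeloid lysozyme, was 446 CPM in WT old 2, 1.08 CPM in WT old 1 and 604 CPM in WT young 1. Of the enzymes of high endothelial venules that decorate Glycam1, Chst4 and Fut7 had 0 counts in WT old 2 and in WKO young 2. Fut7 was also 0 in WT old 1, where Glycam1 was 0. None of the 11 detected endothelial genes was highest in WT old 2 (7.83% of all genes were). Summed endothelial markers (13 genes) were 111 CPM in WT old 2 and 28.8 CPM in WT old 1, with up to 473 CPM elsewhere. The part of endothelial cells in the Glycam1 level was not tested. In WKO against WT young 2 of the 9 endothelial genes tested fell, where 21.4% of all genes were called: Fut7 (0.164 ± 0.149 against 2.12 ± 0.65 CPM, edgeR adjusted p = 0.0409) and Ccl21a (0.0232 ± 0.0402 against 1.93 ± 1.74 CPM, edgeR adjusted p = 0.0347). Of genes of other exocrine glands, 7 of 23 reached 1 CPM and 3 of those were highest in WT old 2 (7.83% of all genes were). Aqp5, a water channel of glands, was 68.9 CPM and Foxi1, a factor of ionocytes, was 58.6 CPM in WT old 2, against at most 13.7 and 4.69 CPM elsewhere.

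The genes whose levels were most like those of the caseins were ranked by Pearson's r, over the 20 libraries, between log2(CPM + 1) of the gene and the mean of that value over the 5 caseins, among 12827 genes of at least 5 CPM in a library. Myo5c, a myosin of secretory epithelia, came first (r = 0.951, Spearman's rho 0.952), and r was 0.897 without WT old 2 and WKO young 2. It was 88.1 CPM in WT old 2, 11.01 CPM in WKO young 2, 9.65 CPM in WT old 1 and at most 0.826 CPM in the carcinomas. Shank2, a scaffold protein, had r = 0.915 and 0.903 without those 2 libraries. Elf5 had r = 0.913 (rho 0.902) and 0.819 without them. Muc1, the apical mucin of glandular epithelia, had r = 0.914 but rho 0.710. The others of the first 10 were Syne4, Plekhs1, Cck, Tmprss6, Tmc4 and Rnf207, with r from 0.902 to 0.938, and r without the 2 libraries from 0.634 (Rnf207) to 0.823 (Plekhs1). By Spearman's rho 4 of the 10 were again among the first 10. These values are a description: the 20 points share groups and sequencing depth, and WT old 2 lies far from the rest. Measured against the same casein mean, r was 0.868 for Wap, 0.845 for Lalba and 0.869 for Glycam1. Without the 2 libraries Lalba fell to 0.550 and Glycam1 to 0.277, and Wap was 0 in all 18 left.

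**Figure D4:**
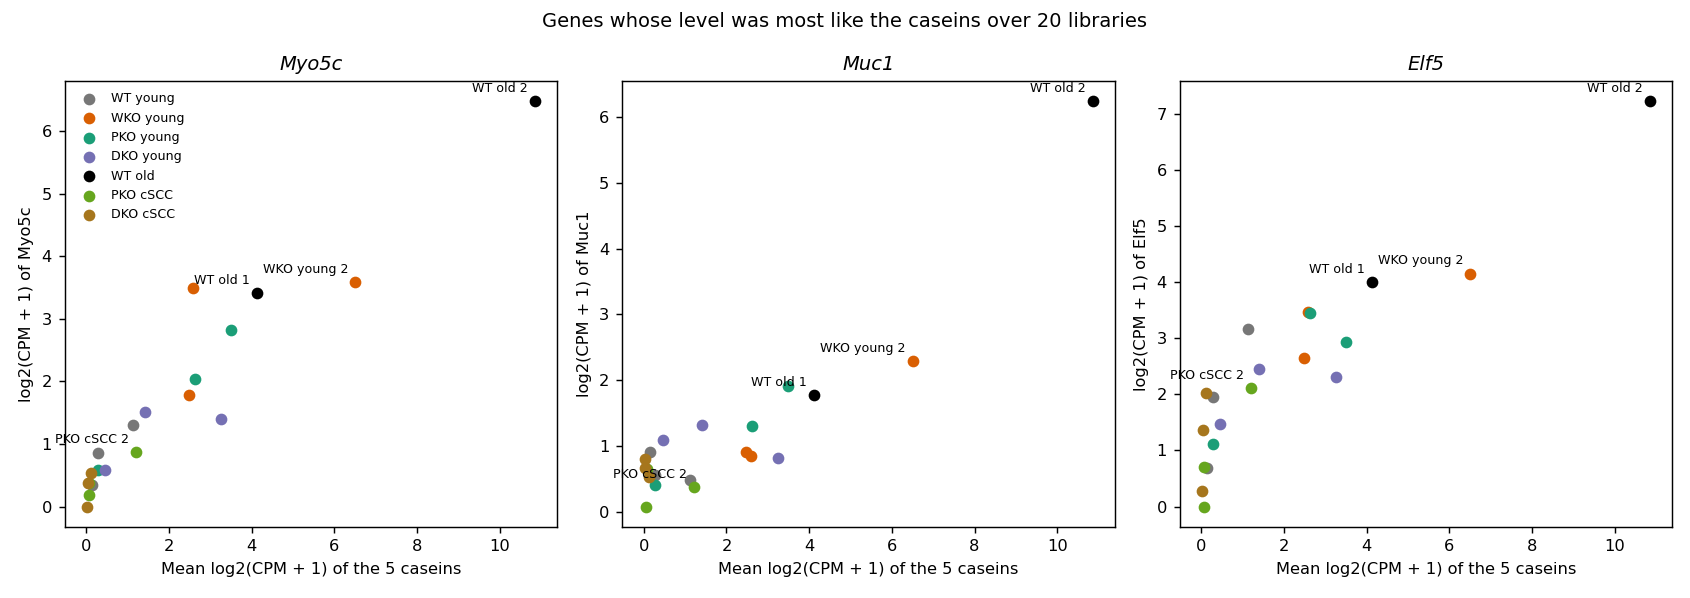
Level of Myo5c, Muc1 and Elf5 (log2(CPM + 1)) against the mean log2(CPM + 1) of the 5 caseins in each of the 20 libraries, coloured by group, with 4 libraries named. WT old 2 is the farthest point in all 3 panels, and for Myo5c and Elf5 the other libraries also rise from the carcinomas at the lower left to WT old 1 and WKO young 2.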

How the data were processed

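Sorted cells gave 5 ng of total RNA for a stranded low-input kit, per the labels' protocols. A single table of whole-number values was deposited, and the authors made it as estimated counts per gene (expected counts). Named in the submitters' processing notes, without role or order, are the build mm39 and the tools Salmon 0.13.1, Trim Galore 0.4.1, DESeq2 1.28.1 and FastQC 0.11.5. The use of molecular identifiers is not stated in any source read here. Estimation of this kind splits reads among similar transcripts, so the paralogues Csn1s2a and Csn1s2b carry that uncertainty. Symbols were matched for 48246 of 51123 identifiers through GENCODE M21.

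Tests used edgeR 4.0.16 under R 4.3.3: TMM scaling, filterByExpr, a quasi-likelihood fit, and p-values adjusted by Benjamini-Hochberg over all genes at 0.05. Young groups shared a fit of 12 libraries, old against young WT a fit of 14, and carcinomas with old WT a fit of 8. P-values set a difference against the spread between libraries, which was estimated over all groups of a fit together. Levels are CPM given as mean ± SD or per library. The members and 9 gene lists were chosen with earlier results of these data known. Named were all members, Wwox, Trp53, up to 4 genes per list (called with the smallest adjusted p, otherwise the highest CPM) and the 10 genes most like the caseins, and all other genes named were chosen after their values were seen. On simulated data with 200 changed genes, the step recovered 72% of log2 changes of 3 for WKO against WT young (16627 genes), 54% for old against young WT (17622) and 22% for DKO cSCC against old WT (16526). Alternatives were RLE scaling, no filter, a replicate block, all 20 libraries in the fit, DESeq2 1.42.0 and each library left out.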

Additional observations from a re-analysis of the deposited data

How the results depend on the processing

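The 3 milk genes called in WKO against WT young were 3 with RLE scaling and with all 20 libraries in the fit, 4 with no filter, 1 with DESeq2, 0 with the replicate number as a block, and 0 to 3 with each library left out. DESeq2 called 5219 of 16627 genes in that comparison. In old against young WT the count of 0 was 1 with RLE scaling, 8 with no filter, 1 with DESeq2, and 0 to 4 with each library left out, the 4 being without WT old 1, when WT old 2 is alone and assumed to vary like other groups. For PKO cSCC against old WT it was 8 with no filter, 6 with all 20 libraries, 2 with DESeq2 and 0 to 2 with each library left out, and for DKO cSCC against old WT it was 8, 5, 2 and 0 to 1. It was 0 under every alternative run for DKO against PKO cSCC. The cause of these differences was not tested.

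The sign of a log2 fold change turned in 10 cases, none of them called. For Csn3 in WKO against WT young, leaving out each library gave -0.083 to 4.78, below 0 without WKO young 2. For Csn3 in PKO against WT young the range was -0.22 to 3.60, with -0.05 without WT young 1 and -0.22 without PKO young 1. For Csn3 in DKO against WT young (-0.01) it was -0.73 to 3.12, with 3.12, 0.35 and 0.15 without WT young 3, without DKO young 2 and without the library labelled DKO young 3, and the replicate block gave 0.38. For Lalba in old against young WT it was -1.72 (without WT old 2) to 13.25. In DKO against PKO cSCC, Csn1s1 had -5.03 to 1.44 and Csn2 -7.94 to 2.76, each above 0 without PKO cSCC 2. Where a gene was at 0 in both groups under a setting no value was taken.

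The labels do not say that replicate numbers pair samples. Over 57 pairs of same-numbered samples of different groups the correlation of deviations was -0.43 to 0.34 (median -0.03), and 10 pairs were over 0.1. Differently numbered pairs were not read beside them, so these values cannot settle whether the numbers pair samples. With the block, 2355 in place of 3563 genes were called in WKO against WT young and 0 in place of 351 in old against young WT. Counts over all genes moved by over 1.5 times in other settings too: PKO against WT young had 1 call, 990 with no filter, 2327 with DESeq2 and 2998 without PKO young 3. Old against young WT had 1068 with no filter, 2145 with DESeq2, 154 with all 20 libraries, and 0 to 434 with each library left out. DKO against WT young had 4629 calls, and 1609 to 4045 with each library left out. WKO against WT young had 2199 with all 20 libraries and 893 to 3513 with each library left out. DKO against PKO cSCC had 1 call, 375 with no filter and 196 with DESeq2. PKO cSCC against old WT had 2 calls, 2285 with no filter, 3876 with all 20 libraries and 3009 with DESeq2, and DKO cSCC against old WT had 0, 853, 788 and 816. Of 112 levels under other scalings 111 stayed within 1 SD, the exception being Csn3 in PKO cSCC (0.210 CPM without mitochondrial ribosomal RNA, 0.149 as reported).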

Other observations

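Outside the members and all lists, 109 genes were at least 5-fold higher in WT old 2 than in every other library. They were chosen after their values were seen, from the library with the most milk RNA, and no test was made. Igfbp5, a binding protein of insulin-like growth factors that mammary epithelium makes in quantity when lactation ends, led by level with 5302 CPM, against at most 401 CPM elsewhere and 157 CPM in WT old 1. Tgfb3, a growth factor also made at that stage, was 428 CPM against at most 48.1 CPM. Lipa, the lysosomal acid lipase, was 307 CPM against at most 26.3 CPM. Clic6, a chloride channel protein, was 200 CPM against at most 9.99 CPM, and Atp6v1b1, a proton pump subunit, was 184 CPM against at most 23.4 CPM. The acute phase genes Saa1 and Saa2 were 86.8 and 46.5 CPM, with at most 1.06 and 1.12 CPM in any other library. In WKO young 2, the library second in milk RNA, Igfbp5 was 175 CPM, Tgfb3 20.1 CPM and Saa1 0.906 CPM, within the range of the libraries other than WT old 2.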
